A study of Mus musculus with 8 samples.

Results

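The 10 immediate early genes Egr1, Egr2, Egr3, Klf2, Klf4, Klf6, Nr4a1, Ier2, Ier3 and Btg2 were followed across osteoclast precursor cells treated with PRDX1, RANKL or both. They were taken by gene symbol from a table of 25124 genes, and all 10 were found. RNA was sequenced from 8 libraries in 4 groups of 2 cultures. The untreated group is called no PRDX1 + no RANKL, and the cells given both proteins PRDX1 + RANKL. Cells given a single protein are called PRDX1 + no RANKL or no PRDX1 + RANKL. PRDX1 was given at 200 nM, RANKL at 100 ng/mL, and all 4 groups received M-CSF at 30 ng/mL. RNA was taken after 48 h. The cells were adherent bone marrow cells grown in M-CSF, from mice 6 to 8 weeks old and of strain C57BL/6 in the sample labels. The culture methods of the study name ICR mice instead. PRDX1 was a recombinant, His-tagged protein made in E. coli and passed over a resin that removes endotoxin. Nothing in the labels says that the 2 cultures of a group came from separate animals, so the p-values measure the spread between these libraries only.

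Immediate early genes are switched on within minutes of a stimulus, without new protein synthesis, mostly through the ERK pathway and the factors SRF, the ternary complex factors and CREB, and in macrophages also through NF-κB. Most of their mRNAs are short-lived. Here RNA was taken at 48 h only, so an earlier change that had ended by then would not be seen. The EGR proteins are zinc finger transcription factors, the KLF proteins are Krüppel-like zinc finger factors, Nr4a1 (Nur77) is an orphan nuclear receptor, Ier2 and Ier3 encode small proteins of the early response, and Btg2 encodes an antiproliferative protein that binds the CCR4-NOT deadenylase. In macrophages KLF2 and Nur77 are known to restrain inflammatory gene expression, KLF6 to promote it, and Ier3 to be a target of NF-κB that affects cell survival.

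The reads counted on genes summed to between 24542578 and 41712973 per library. Macrophage markers were abundant in every library, with 8 of 8 tested and a summed level of 9860 to 17500 FPKM (reads scaled by transcript length and library size). The summed level of 9 osteoclast markers was 34.4 and 35.3 FPKM with no PRDX1 + no RANKL and 1830 and 1930 FPKM with no PRDX1 + RANKL. Replicates of a group differed by more than counting noise in all 4 groups (ratio of chi-square to its degrees of freedom between 4.71 and 9.58), and each library was kept as a sample of its own.

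Upstream sequence was taken from RefSeq (GRCm38.p6, the assembly of mm10) for the members with an entry that starts at the transcript counted. These were Egr2, Klf2, Klf4, Klf6, Nr4a1, Ier3 and Btg2, 7 in all, and the 250 bases before the start were searched on both strands. Egr1, Egr3 and Ier2 had no entry and were not searched. Egr2 had 5 entries, and only the 1 at the start of the transcript counted was searched. Stretches of 4 genes are shown, Ier3 and Egr2 because PRDX1 raised both genes whether or not RANKL was given, Klf4 because it rose with RANKL, and Nr4a1 because it fell with RANKL. Capitals mark matches to the serum response element (SRE, the site of SRF), to the short core of the cAMP response element (CRE core, TGACG, which reads CGTCA where it lies on the reverse strand), and to the NF-κB consensus. Each sequence is written 5′ to 3′ on the strand of its gene.
Ier3, chr17:35821463-35821712, plus strand: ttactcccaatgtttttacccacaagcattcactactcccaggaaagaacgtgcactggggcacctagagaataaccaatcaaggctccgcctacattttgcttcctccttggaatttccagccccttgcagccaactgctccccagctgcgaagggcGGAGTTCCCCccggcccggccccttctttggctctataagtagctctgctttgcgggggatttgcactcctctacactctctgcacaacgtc
Egr2, chr10:67537680-67537929, plus strand: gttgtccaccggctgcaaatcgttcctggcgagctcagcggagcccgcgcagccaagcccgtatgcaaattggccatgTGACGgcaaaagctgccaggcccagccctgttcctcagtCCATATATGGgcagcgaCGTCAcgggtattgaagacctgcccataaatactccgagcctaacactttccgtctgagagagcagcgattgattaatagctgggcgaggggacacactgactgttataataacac
Klf4, chr4:55532476-55532725, minus strand: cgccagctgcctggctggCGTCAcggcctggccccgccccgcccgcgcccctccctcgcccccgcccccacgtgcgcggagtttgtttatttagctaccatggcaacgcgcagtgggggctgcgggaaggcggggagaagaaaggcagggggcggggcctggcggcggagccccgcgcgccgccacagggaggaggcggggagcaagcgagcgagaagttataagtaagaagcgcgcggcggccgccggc
Nr4a1, chr15:101266596-101266845, plus strand: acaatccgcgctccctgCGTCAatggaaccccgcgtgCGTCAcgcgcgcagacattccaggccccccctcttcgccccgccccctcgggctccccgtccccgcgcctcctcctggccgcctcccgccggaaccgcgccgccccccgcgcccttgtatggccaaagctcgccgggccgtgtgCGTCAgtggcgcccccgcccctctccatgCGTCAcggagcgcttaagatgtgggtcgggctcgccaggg

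Ier3 held the only match to the NF-κB consensus among the 7 members, from 92 to 83 bases before the start on the reverse strand, and 3.90% of all 32851 windows of the same length held such a match. Egr2 held the only SRE, from 133 to 124 bases before the start, against 1.47% of all windows. That SRE had a CRE core on each side. CRE cores were found in 5 of 7 members (Egr2, Klf2, Klf4, Nr4a1 and Btg2) and in 17.8% of all windows, and Nr4a1 had 4 of them. The full CRE (TGACGTCA), which holds the core on both strands, was found in Btg2 from 166 to 159 bases before the start, against 1.55% of all windows. The EGR site (GCGNGGGCG) was found in 4 of 7 members (Klf2, Klf4, Nr4a1 and Btg2) and in 4.70% of all windows. It can overlap the GC box (GGGCGG), which was found in 6 of 7 members, all but Egr2, and in 32.7% of all windows. In Ier3 a GC box shared bases with the NF-κB match. The KLF box (CACCC) was found in Klf2 and in 52.0% of all windows. The AP-1 site (TGANTCA), the NBRE of Nur77 (AAAGGTCA) and the TATA box (TATAAA) had no match in the 7 windows, and were found in 6.75%, 1.34% and 12.4% of all windows. A match gives the letters in these windows and not the binding of a factor.

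**Figure D1:**
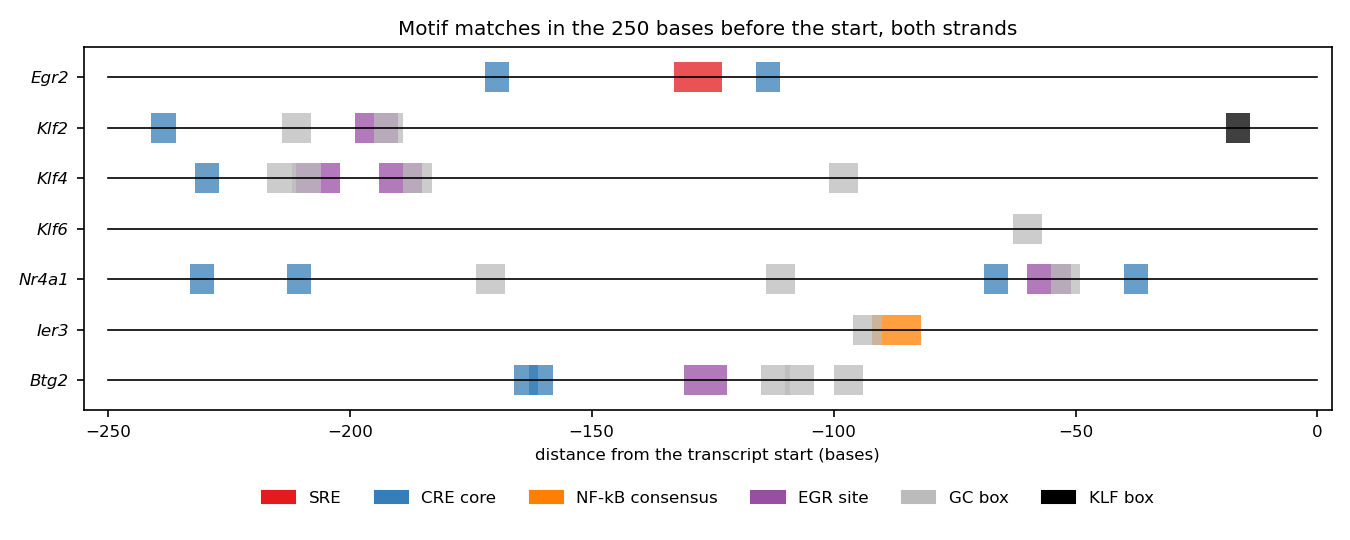
Matches to 6 motifs in the 250 bases before the transcript start of the 7 members with a RefSeq window, drawn by distance from the start in bases, with both strands combined. The SRE is seen in Egr2, the NF-κB consensus in Ier3, and 4 CRE cores in Nr4a1.

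The members covered a wide range of levels (FPKM, per length and comparable between genes). Klf6 was the most abundant, with a mean over the 8 libraries of 78.5 FPKM, above 91.9% of the genes tested. Ier2 had a mean of 21.1 FPKM, Ier3 14.9, Klf2 12.4, Klf4 9.25, Btg2 4.58, Egr2 2.96 and Nr4a1 1.83 FPKM. Egr1, the member most often used as a marker of the immediate early response, was near the lower limit of the genes tested, with a mean of 0.692 FPKM from 46 to 113 reads per library. Egr3 had a mean of 0.117 FPKM from 8 to 22 reads and was the only member under the minimum of 0.5 FPKM, so that 9 of 10 members were tested.

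Between groups, Klf4 and Ier3 spanned the widest ranges, with 5.37 times and 5.12 times more FPKM in the highest group than in the lowest. For Nr4a1 the ratio was 3.68, for Egr2 2.81, for Klf2 2.45 and for Klf6 2.10. Egr1 (1.35), Ier2 (1.33) and Btg2 (1.21) varied least among the 9 members tested. In Klf2, Klf4, Nr4a1 and Ier3 the 4 groups could be put in an order with no overlap between neighbours, as they could for 28.2% of all genes tested. Klf2 and Nr4a1 had the same order, PRDX1 + no RANKL, then no PRDX1 + no RANKL, then PRDX1 + RANKL, then no PRDX1 + RANKL. Ier3 differed from this only in that PRDX1 + RANKL came before no PRDX1 + no RANKL. Klf6 had the order of Klf2, but no PRDX1 + no RANKL and PRDX1 + RANKL overlapped. Klf4 had PRDX1 + RANKL highest, then no PRDX1 + RANKL, then PRDX1 + no RANKL, then no PRDX1 + no RANKL. In Ier2 the order was that of Klf4, with overlap between the middle groups, and in Egr2 both groups with PRDX1 stood above the groups without it, which overlapped. Btg2 was highest with no PRDX1 + no RANKL, then PRDX1 + RANKL, and the groups given a single protein overlapped below. In Egr1 and Egr3 all neighbouring groups overlapped.

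**Figure D2:**
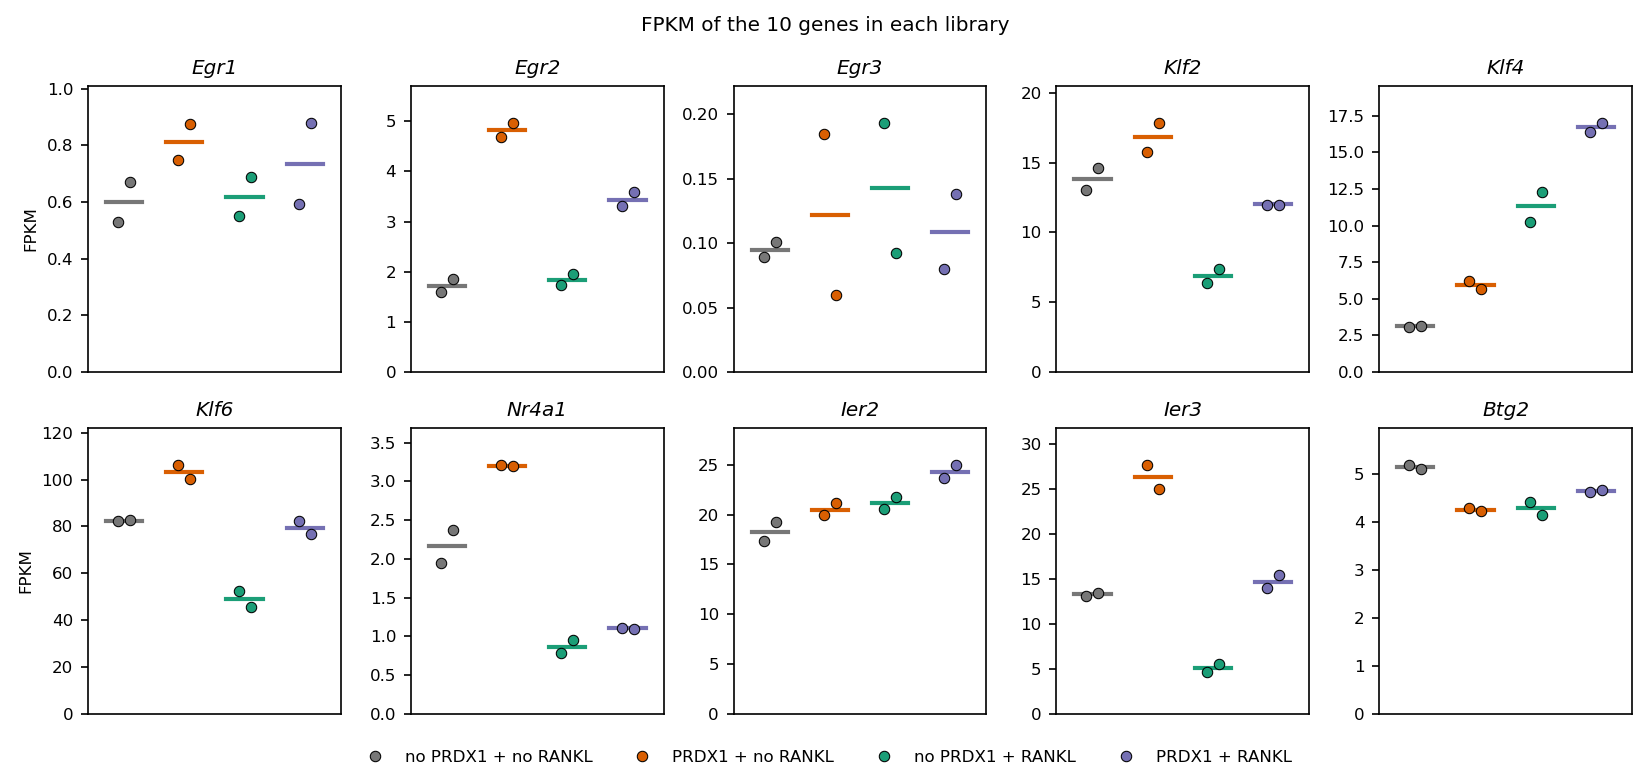
FPKM of each of the 10 members in the 8 libraries, on a linear axis from 0 with a scale of its own per gene. Points are libraries and bars are group means (n = 2). Ier3, Klf2 and Klf6 are lowest with no PRDX1 + RANKL, Klf4 is highest with PRDX1 + RANKL, and neighbouring groups of Egr1 and Egr3 overlap.

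First, cells with and without PRDX1 were compared in the absence of RANKL, to see which genes PRDX1 alone changes. Egr2, Ier3 and Klf4 rose, and no member fell. These are 3 of 9 members tested called higher, beside 3.80% of all 11700 genes tested, and 0 called lower, beside 1.99%. A gene was called when its fold change on the scale of FPKM + 1 was at least 1.5 and its adjusted p-value under 0.05 (limma, Benjamini-Hochberg over all genes tested). The median log2 fold change was 0.32 over the 9 members and -0.039 over all genes tested. An unadjusted p-value under 0.05 was found for 8 of 9 members, all but Egr1, beside 39.8% of all genes tested.

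Egr2, listed as NM_001347458, is annotated on chromosome 10 (mm10, 67537930 to 67542188, plus strand). Its libraries had 1.59 and 1.86 FPKM with no PRDX1 + no RANKL and 4.69 and 4.96 FPKM with PRDX1 + no RANKL. Both libraries with PRDX1 were far above both without it, at 2.80 times the mean FPKM. On the scale of log2(FPKM + 1) the change was 1.10 (SE 0.09, adjusted p = 2.12e-05), larger than that of 98.9% of the genes tested. Ier3, NM_133662, on chromosome 17 from 35821713 to 35822911 on the plus strand, had 13.1 and 13.4 FPKM without PRDX1 and 27.7 and 25.0 FPKM with it. The groups were well apart, and the log2 fold change was 0.94 (SE 0.09, adjusted p = 3.49e-05). Klf4, NM_010637, on chromosome 4 from 55527137 to 55532475 on the minus strand, had 3.06 and 3.16 FPKM without PRDX1 and 6.22 and 5.67 FPKM with it. The log2 fold change of Klf4 was 0.76 (SE 0.09, adjusted p = 1.68e-04), and its groups did not overlap.

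Of the other members, 4 passed the adjusted p-value but not the fold change in this comparison. Nr4a1, NM_010444, on chromosome 15 from 101266846 to 101274794 on the plus strand, had 1.94 and 2.37 FPKM without PRDX1 and 3.21 and 3.19 FPKM with it. Its log2 fold change was 0.42 (SE 0.10, adjusted p = 0.0127), a ratio of 1.33 on the scale of FPKM + 1 and of 1.48 on FPKM itself. Klf6, NM_011803, on chromosome 13 from 5861489 to 5870393 on the plus strand, had 82.2 and 82.7 FPKM without PRDX1 and 106 and 100 FPKM with it (log2 fold change 0.32, SE 0.07, adjusted p = 0.00571). For Klf2, NM_008452, on chromosome 8 from 72319062 to 72321654 on the plus strand, the libraries without PRDX1 had 13.1 and 14.6 FPKM and those with it 15.7 and 17.8 FPKM (log2 fold change 0.26, adjusted p = 0.0463). Btg2 alone had a negative value. It is listed as NM_007570, on chromosome 1 from 134074865 to 134079155 on the minus strand, and had 5.18 and 5.11 FPKM without PRDX1 and 4.28 and 4.23 FPKM with it. The log2 fold change of Btg2 was -0.22 (SE 0.07, adjusted p = 0.0458).

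Egr1 and Ier2 passed neither threshold at 48 h. Egr1, NM_007913, is annotated on chromosome 18 (34861207 to 34864956, plus strand). It had 0.528 and 0.671 FPKM with no PRDX1 + no RANKL (48 and 86 reads) and 0.749 and 0.877 FPKM with PRDX1 alone (72 and 95 reads). Both libraries with PRDX1 were above both without it, but the log2 fold change of 0.18 had a 95% confidence interval from -0.093 to 0.46, which included 0 (adjusted p = 0.309). At this level the value depends on the scale, and for Egr1 it was 0.39 with a pseudocount of 0.1 and 0.42 with voom on the recovered reads, not called in either. Ier2, NM_010499, on chromosome 8 from 84661331 to 84662852 on the minus strand, had 17.4 and 19.3 FPKM without PRDX1 and 19.9 and 21.1 FPKM with it. Its interval, from 0.0043 to 0.31, stayed under the fold change called (adjusted p = 0.115).

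**Figure D3:**
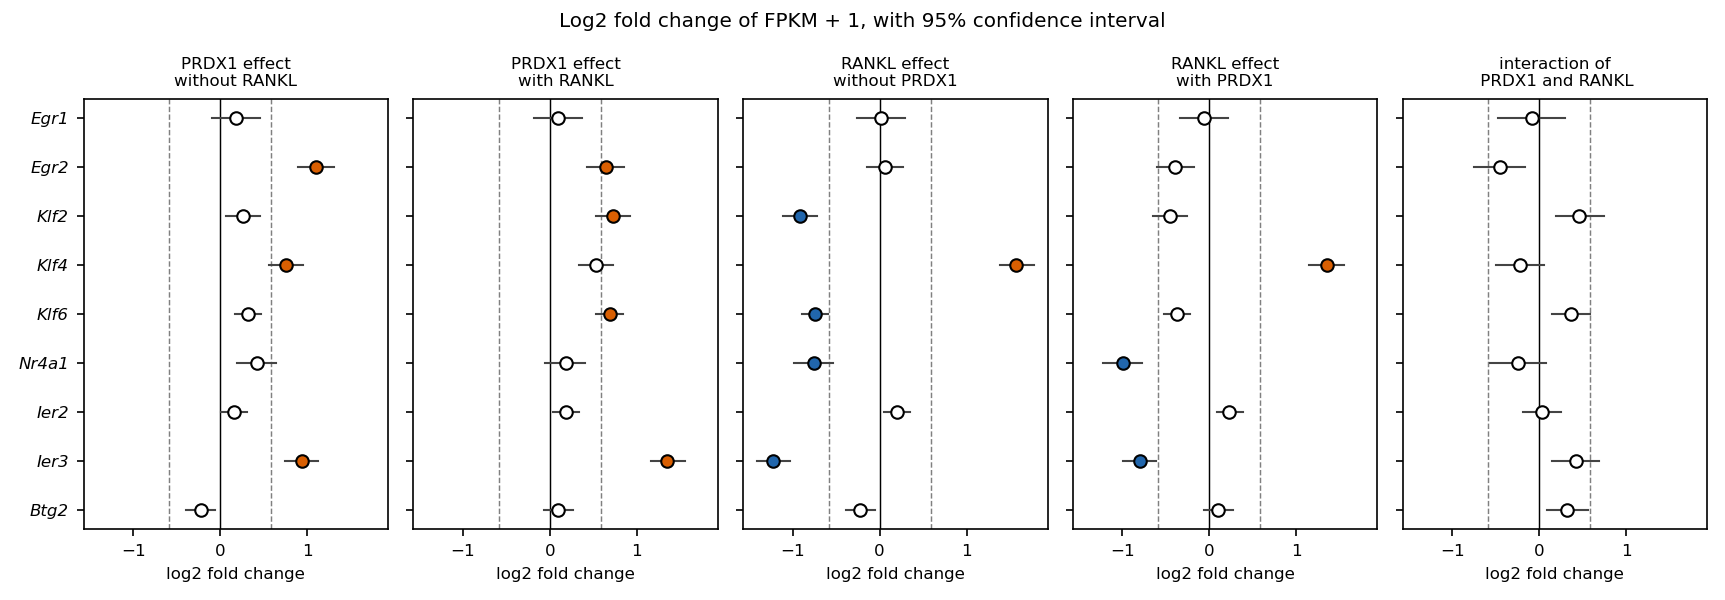
Log2 fold change of FPKM + 1 of the 9 members tested in the 4 pairwise comparisons and the interaction, with bars for the 95% confidence interval of the limma fit. Orange and blue points were called higher and lower, white points were not called, and dashed lines mark a fold change of 1.5. Ier3 is orange in both PRDX1 panels and blue in both RANKL panels, whereas Klf4 is orange in both RANKL panels.

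Next, the same comparison was made in the presence of RANKL, the condition in which osteoclasts form. Ier3, Klf2, Klf6 and Egr2 rose, and again no member fell. These are 4 of 9 members called higher, beside 6.03% of all genes tested, and 0 lower, beside 4.17%. The median log2 fold change was 0.53 over the members and -0.057 over all genes tested, and all 9 values were above 0, beside 41.4% of those of all genes tested.

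Ier3 had 4.73 and 5.60 FPKM with no PRDX1 + RANKL and 14.0 and 15.4 FPKM with PRDX1 + RANKL. This was 2.85 times the mean FPKM, and the largest PRDX1 effect among the members, with a log2 fold change of 1.35 (SE 0.09, adjusted p = 1.30e-06). Klf2 had 6.40 and 7.35 FPKM without PRDX1 and 12.0 and 12.0 FPKM with it, a log2 fold change of 0.72 (SE 0.09, adjusted p = 1.07e-04). The 2 libraries with PRDX1 + RANKL were nearly equal for Klf2, and still under both libraries with no PRDX1 + no RANKL. Klf6 had 52.4 and 45.7 FPKM without PRDX1 and 82.3 and 76.6 FPKM with it (log2 fold change 0.69, SE 0.07, adjusted p = 2.66e-05). With no PRDX1 + no RANKL the libraries had 82.2 and 82.7 FPKM, so that 1 library with PRDX1 + RANKL was at that level and the other below it. Egr2 had 1.74 and 1.95 FPKM without PRDX1 and 3.30 and 3.58 FPKM with it (log2 fold change 0.64, SE 0.09, adjusted p = 3.77e-04).

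Klf4 fell just short of the fold change. Its libraries had 10.3 and 12.3 FPKM with no PRDX1 + RANKL and 16.4 and 17.0 FPKM with PRDX1 + RANKL, with no overlap, and the log2 fold change was 0.53 (SE 0.09, adjusted p = 8.71e-04). The value rested on the libraries with no PRDX1 + RANKL. Without replicate 2 of that group it was 0.65 and was called, and without replicate 1 it was 0.41 and was not. Ier2 had 20.5 and 21.8 FPKM without PRDX1 and 23.7 and 24.9 FPKM with it (log2 fold change 0.19, adjusted p = 0.0442), which passed the p-value alone. Nr4a1 had 0.787 and 0.950 FPKM without PRDX1 and 1.12 and 1.10 FPKM with it, a log2 fold change of 0.18 (adjusted p = 0.196). The size of this value for Nr4a1 varied, from 0.11 without replicate 1 of no PRDX1 + RANKL to 0.32 with a pseudocount of 0.1 and 0.34 with voom on the recovered reads, and it was not called in any of these. Egr1 (0.096, adjusted p = 0.564) and Btg2 (0.096, adjusted p = 0.329) had the smallest values. The 95% confidence intervals of these 3 genes ran from -0.053 to 0.40, from -0.18 to 0.37 and from -0.07 to 0.26 on the scale of log2(FPKM + 1). For Nr4a1 and Egr1, whose levels are near 1 FPKM, this scale compresses fold changes, and a change of 1.5-fold in FPKM itself is not excluded.

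The comparisons that follow share libraries with those above, so their errors are not independent. RANKL was compared with no RANKL in the absence of PRDX1, the step at which the precursor cells begin osteoclast differentiation. Ier3, Klf2, Nr4a1 and Klf6 fell, and Klf4 rose. These are 4 of 9 members called lower, beside 9.96% of all genes tested, and 1 called higher, beside 11.8%. The median was -0.22 over the members and 0.096 over all genes tested. The balance of calls over all genes turned with the scaling, from 1383 higher and 1165 lower to 1088 and 1322 under quantile normalization and 1153 and 1302 under upper quartile scaling, whereas the members' counts stayed at 1 and 4.

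Klf4 rose from 3.06 and 3.16 FPKM to 10.3 and 12.3 FPKM, 3.62 times the mean, with a log2 fold change of 1.57 (SE 0.09, adjusted p = 1.88e-07). It was the only member with a large increase, above 98.2% of the genes tested. Ier3 fell from 13.1 and 13.4 FPKM to 4.73 and 5.60 FPKM (log2 fold change -1.22, SE 0.09, adjusted p = 9.66e-07). Klf2 fell from 13.1 and 14.6 FPKM to 6.40 and 7.35 FPKM (log2 fold change -0.91, SE 0.09, adjusted p = 9.36e-06). For both genes the libraries with RANKL alone were the lowest of the series. Klf6 fell from 82.2 and 82.7 FPKM to 52.4 and 45.7 FPKM (log2 fold change -0.74, SE 0.07, adjusted p = 6.67e-06). Nr4a1 fell from 1.94 and 2.37 FPKM to 0.787 and 0.950 FPKM, with 142 and 244 reads against 53 and 81 (log2 fold change -0.75, SE 0.10, adjusted p = 1.19e-04). On FPKM itself this was 0.403 times the level without RANKL, close to that of Ier3 at 0.389.

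Ier2 (0.20, adjusted p = 0.0286) and Btg2 (-0.22, adjusted p = 0.0272) passed the p-value but not the fold change. For Ier2 the p-value depended on the scaling. Its value was 0.13 under quantile normalization (adjusted p = 0.127) and 0.13 under upper quartile scaling (adjusted p = 0.107). The values of the 2 EGR genes tested were near 0. Egr1 had 0.550 and 0.689 FPKM with RANKL, each close to a library without RANKL, and a log2 fold change of 0.018 (95% confidence interval from -0.26 to 0.29). Egr2 had a log2 fold change of 0.062 (95% confidence interval from -0.15 to 0.27), and its groups overlapped. The sign of these 2 values changed with the scaling of the libraries (Egr1 to -0.051 and Egr2 to -0.0071 under quantile normalization), so no direction is given. The other 7 members kept their direction under quantile normalization and upper quartile scaling.

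With PRDX1 present in both groups, RANKL still raised Klf4 and lowered Nr4a1 and Ier3. These are 1 of 9 members called higher, beside 4.52% of all genes tested, and 2 called lower, beside 3.98%. Klf4 went from 6.22 and 5.67 FPKM to 16.4 and 17.0 FPKM (log2 fold change 1.35, SE 0.09, adjusted p = 2.20e-06), above 99.3% of the genes tested. Nr4a1 went from 3.21 and 3.19 FPKM to 1.12 and 1.10 FPKM, 0.346 times the level, with a log2 fold change of -0.99 (SE 0.10, adjusted p = 4.76e-05). Only 1.13% of the genes tested had a lower value. Ier3 went from 27.7 and 25.0 FPKM to 14.0 and 15.4 FPKM (log2 fold change -0.80, SE 0.09, adjusted p = 6.12e-05).

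Klf2, Egr2 and Klf6 passed the p-value but not the fold change here, with log2 fold changes of -0.45 (adjusted p = 0.00253), -0.39 (adjusted p = 0.00794) and -0.37 (adjusted p = 0.00170). For Ier2 the value was 0.23 (adjusted p = 0.0203) and for Btg2 0.10 (adjusted p = 0.308). Egr1 had -0.067 (95% confidence interval from -0.34 to 0.21). The median was -0.37 over the 9 members and 0.07 over all genes tested.

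**Figure D4:**
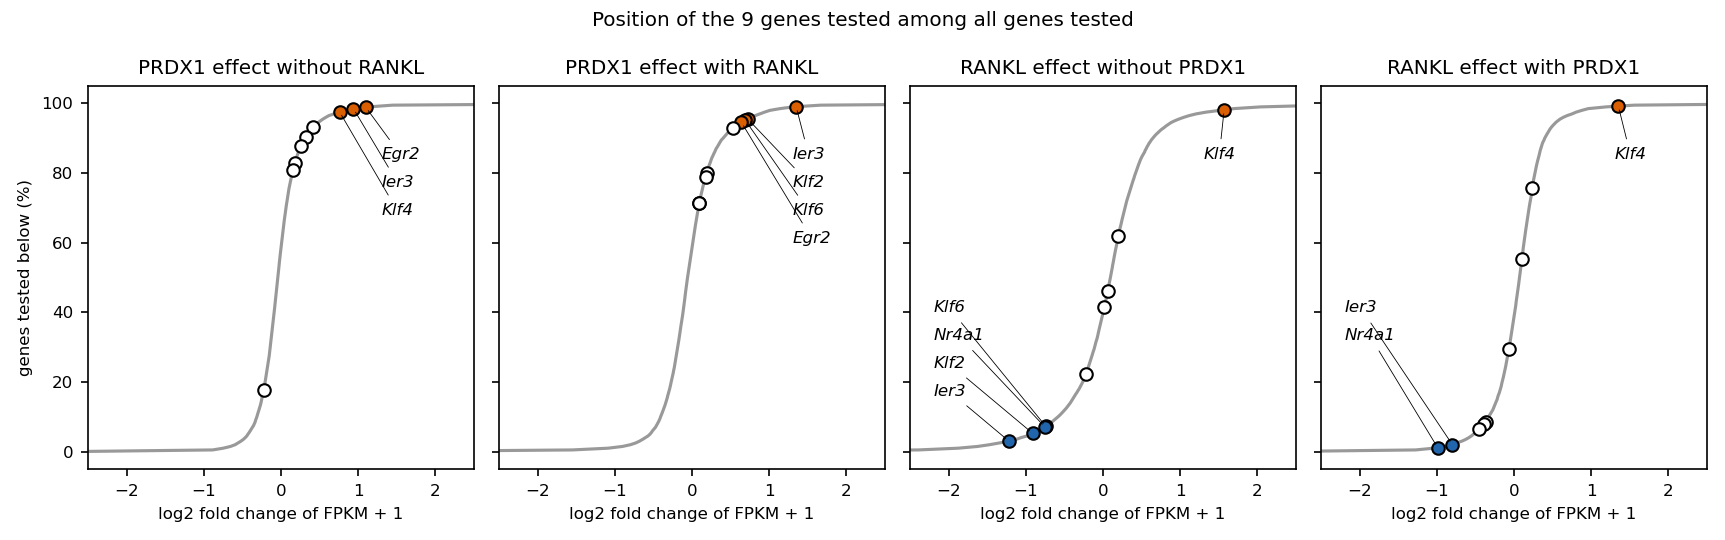
Cumulative share of all 11700 genes tested against their log2 fold change of FPKM + 1 in the 4 pairwise comparisons (grey line), with the 9 members as points. Orange and blue points were called higher and lower. In the PRDX1 panels every member but Btg2 without RANKL lies in the upper part of the curve, and in the RANKL panels the members are spread along the curve, with Klf4 at the upper end.

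The PRDX1 effects in the 2 RANKL conditions were then compared with each other as an interaction. No member was called in it, 0 of 9 higher beside 4.50% of all genes tested and 0 of 9 lower beside 4.35%. No ratio of the 2 fold changes reached 1.5 on the scale of FPKM + 1, which compresses fold changes at low levels. On FPKM itself, the PRDX1 fold of Egr2 was 2.80 without RANKL and 1.87 with it. An unadjusted p-value under 0.05 was found for 5 of 9 members, beside 34.9% of all genes tested, and an adjusted p-value under 0.05 for 4, beside 23.1%. For each of these 4 the adjusted p-value passed 0.05 when no filter on level was used (0.067 to 0.0855) and without some of the single libraries (4 to 6 of the 8), so their differences are not firm. Among them, the PRDX1 effect on Klf2 was larger with RANKL, by 0.46 on the log2 scale (95% confidence interval from 0.19 to 0.74, adjusted p = 0.0227). That on Ier3 was larger by 0.42 (from 0.15 to 0.69, adjusted p = 0.0321), and that on Klf6 by 0.37 (from 0.15 to 0.58, adjusted p = 0.0207). The effect of PRDX1 on Egr2 was smaller with RANKL, with a difference of -0.45 (from -0.75 to -0.16, adjusted p = 0.0338). For Btg2, which was called in neither comparison, both PRDX1 libraries were below both controls without RANKL and above them with RANKL. Its difference of 0.32 had an interval from 0.086 to 0.56 and an adjusted p-value of 0.0529, and did not pass. For Klf4 (-0.22, adjusted p = 0.239), Nr4a1 (-0.24, adjusted p = 0.277), Egr1 and Ier2 the intervals included 0. Leaving out single libraries moved Klf4 between -0.34 and -0.11 and Nr4a1 between -0.34 and -0.14.

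Egr3 (NM_001289927, chromosome 14 from 70077795 to 70082613 on the plus strand) was under the minimum level. It had 0.089 and 0.101 FPKM with no PRDX1 + no RANKL, 0.185 and 0.060 FPKM with PRDX1 alone, 0.193 and 0.092 FPKM with RANKL alone, and 0.080 and 0.138 FPKM with both. The ranges of neighbouring groups overlapped, and a difference was not detectable at this depth. In a fit with no filter on level, the log2 fold changes of Egr3 lay between -0.076 and 0.06 in the 5 tests, with adjusted p-values from 0.536 to 0.925. No member shared an exon with another annotated gene in GENCODE M21, on either strand, so that counting both strands did not mix their reads with those of an overlapping gene.

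Genes related to the members were followed in lists. Of 24 other genes of the EGR, KLF, NR4A, IER and BTG/TOB families, 14 passed the minimum level. PRDX1 alone raised 2 of these 14, with RANKL it raised 0, and none fell in either comparison. Over all genes, 3.80% were called higher without RANKL and 6.03% with it, and 1.99% and 4.17% lower. The 2 were Klf10 and Btg3 (log2 fold change 0.59, adjusted p = 0.00275). Klf10, a factor induced by TGF-β, rose from 12.4 and 12.3 FPKM to 23.2 and 22.8 FPKM with PRDX1 alone (log2 fold change 0.85, adjusted p = 3.53e-06). With RANKL it had 25.1 and 26.5 FPKM and with both 26.6 and 26.8 FPKM, so that the 3 treated groups lay close together. RANKL alone raised Klf10 (adjusted p = 1.56e-07), Klf7 (1.13, adjusted p = 9.11e-05) and Btg1 (0.98, adjusted p = 1.46e-07), the last an antiproliferative relative of Btg2, and lowered 1, Klf3 (adjusted p = 4.75e-05, named after its value was seen). With PRDX1 present RANKL raised Klf7 (1.17) and Btg1 (0.68) and lowered 0. Of all genes, RANKL raised 11.8% and lowered 9.96% without PRDX1, and raised 4.52% and lowered 3.98% with it.

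A list of 33 other immediate early genes, of which 32 were tested, included the AP-1 subunits and MAP kinase phosphatases. Over all genes tested, PRDX1 raised 3.80% and lowered 1.99% without RANKL, and raised 6.03% and lowered 4.17% with RANKL. In the list it raised 12 and lowered 0 without RANKL (median log2 fold change 0.36, all genes -0.039). With RANKL it raised 14 and lowered 1 of the list (median 0.47, all genes -0.057). Without RANKL the largest increases were those of Fos (1.52, adjusted p = 4.26e-07), Dusp1 (1.37, adjusted p = 5.17e-06), a MAP kinase phosphatase, and Junb (1.20, adjusted p = 8.56e-07), a partner of Fos in AP-1. In the presence of RANKL the PRDX1 effect was 0.13 on Fos (adjusted p = 0.182) and -0.28 on Junb (adjusted p = 0.00587, under the fold called), and the interaction was called lower for both (-1.40 and -1.47). Dusp1 rose with RANKL too (1.11, adjusted p = 9.35e-06). With RANKL the largest changes were those of Atf3 (2.16, adjusted p = 1.65e-08) and Plk2 (2.02, adjusted p = 4.79e-08), and Fosl2, another AP-1 subunit, fell (-1.64, adjusted p = 5.34e-08). RANKL raised 7 and lowered 7 of the 32 without PRDX1 (median 0.21, all genes 0.096), beside 11.8% and 9.96% of all genes. With PRDX1 it raised 6 and lowered 5 (median 0.025, all genes 0.07), beside 4.52% and 3.98%. Fos (3.06, adjusted p = 4.26e-10) and Junb (2.69, adjusted p = 4.31e-10) rose without PRDX1, and Atf3 fell (-2.71, adjusted p = 8.33e-10).

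Atf3, a stress-induced repressor of the ATF/CREB family, had the order of Klf2 and Nr4a1. Its libraries had 34.5 and 37.5 FPKM with no PRDX1 + no RANKL, 68.6 and 67.9 FPKM with PRDX1 alone, 4.99 and 4.35 FPKM with RANKL alone, and 25.2 and 23.4 FPKM with both. These 4 groups did not overlap.

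The list of EGR co-repressors and ID proteins held Nab1, Nab2, Id1, Id2 and Id3. NAB proteins bind EGR factors and repress their activity, and ID proteins are helix-loop-helix factors without a DNA-binding domain that are known to restrain osteoclast formation. PRDX1 raised 3 of 5, the 3 ID genes, in both comparisons, and lowered 0. Of all genes, 3.80% were called higher without RANKL and 6.03% with it, and 1.99% and 4.17% lower. Id1 had 21.6 and 23.6 FPKM with no PRDX1 + no RANKL, 106 and 110 FPKM with PRDX1 alone, 8.36 and 8.96 FPKM with RANKL alone and 36.5 and 38.0 FPKM with both. PRDX1 changed it by 2.21 on the log2 scale in the absence of RANKL (adjusted p = 1.99e-08) and by 1.99 in its presence (adjusted p = 1.33e-08). Id2 had 52.7 and 58.6 FPKM with neither, 215 and 193 FPKM with PRDX1, 63.1 and 59.3 FPKM with RANKL and 136 and 135 FPKM with both. That is the order of groups seen for Egr2, highest with PRDX1 alone, next with both, and low in both groups without PRDX1. The log2 fold changes of Id2 by PRDX1 were 1.85 (adjusted p = 7.38e-08) and 1.13 (adjusted p = 8.82e-07). Id3 rose by 1.75 (adjusted p = 1.99e-08) and 1.16 (adjusted p = 5.84e-08). Nab2, itself a known target of EGR factors, fell with RANKL alone, from 17.6 and 18.3 FPKM to 8.66 and 9.44 FPKM (log2 fold change -0.91, adjusted p = 1.69e-06), and was not called for PRDX1. RANKL lowered 2 of the 5 genes and raised 0 in each RANKL comparison, Id1 and Nab2 without PRDX1 and Id1 and Id2 with it. Of all genes, RANKL lowered 9.96% without PRDX1 and 3.98% with it, and raised 11.8% and 4.52%.

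**Figure D5:**
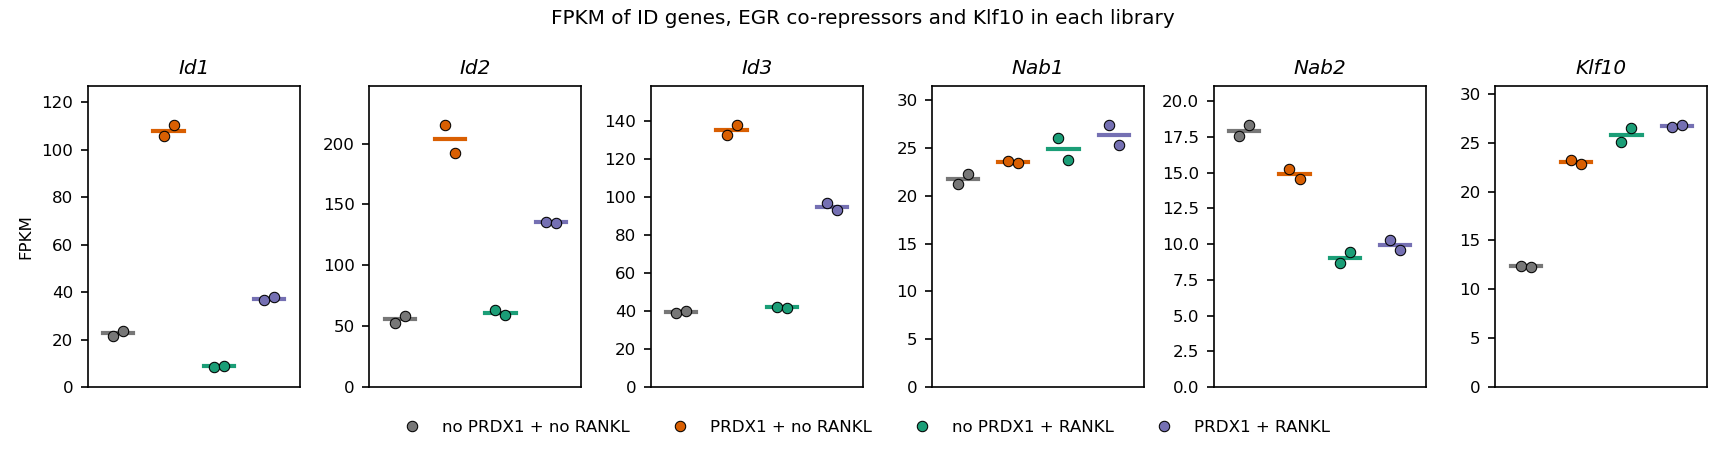
FPKM of Id1, Id2, Id3, Nab1, Nab2 and Klf10 in the 8 libraries, on linear axes from 0. Points are libraries and bars are group means (n = 2). The ID genes are highest with PRDX1 + no RANKL, and Nab2 is low in both groups with RANKL.

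The kinases and factors upstream of immediate early genes were followed as well. Of 20 genes tested in the list of the ERK pathway and the factors at these promoters, PRDX1 raised 0 and lowered 0 without RANKL, and raised 2 and lowered 0 with RANKL. Over all genes, 3.80% were called higher and 1.99% lower without RANKL, and 6.03% and 4.17% with it. The counts of the list are thus near the background. The 2 raised with RANKL were Mef2c (0.69, adjusted p = 1.34e-05) and Mef2a (0.60, adjusted p = 4.59e-06), MADS-box factors that act with MAP kinases. RANKL alone raised 1 and lowered 5 of the 20, beside 11.8% and 9.96% of all genes, among them Mef2c (-2.10, adjusted p = 1.60e-09), from 27.0 and 28.5 FPKM to 5.82 and 5.57 FPKM. With PRDX1 present RANKL raised 1 and lowered 2, beside 4.52% and 3.98% of all genes. None of the 10 CCR4-NOT subunits, the deadenylase that BTG and TOB proteins bind, was called in any of the 5 tests, and with 1.99% to 11.8% of all genes called in one direction, 0 of 10 is near the background.

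Markers of cell state and of other cell types moved with the groups too. Of 8 macrophage markers, RANKL alone lowered 6 and PRDX1 in the presence of RANKL raised 4, and their summed level, most of it that of Lyz2, was 15700 and 17500 FPKM with neither, 16500 and 17000 with PRDX1, 9860 and 10300 with RANKL and 13400 and 13800 with both. Of the 8 osteoclast markers tested, RANKL alone raised 8 and PRDX1 in the presence of RANKL lowered 8. Of all genes, RANKL alone lowered 9.96% and raised 11.8%, and PRDX1 with RANKL raised 6.03% and lowered 4.17%. The lower levels of Ier3, Klf2, Klf6 and Nr4a1 with RANKL alone thus stood beside lower macrophage markers, and in bulk RNA fewer cells of a type and less RNA per cell cannot be told apart. The part of this in the members' changes was not tested. Of 7 heat shock genes tested, PRDX1 raised 2 without RANKL and 1 with RANKL, and RANKL alone raised 2. The shares of all genes called higher in these comparisons were 3.80%, 6.03% and 11.8%. The summed level of all 8 heat shock genes was 814 to 873 FPKM with neither, 794 to 809 with PRDX1, 1270 to 1310 with RANKL alone and 1100 to 1120 with both, and their part in the members' changes was not tested.

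Markers of other cell types were low. The summed level of 8 neutrophil markers was 8.19 and 12.2 FPKM with neither, 38.8 and 43.3 with PRDX1, 16.2 and 16.6 with RANKL and 34.0 and 37.5 with both, mostly S100a8 and S100a9, and that of 9 stromal and endothelial markers 13.0 and 15.6, 25.6 and 26.1, 14.6 and 15.3, and 24.9 and 30.1 FPKM. Both sums were higher with PRDX1 at equal RANKL, as were 7 of the members, Egr2, Klf2, Klf4, Klf6, Nr4a1, Ier2 and Ier3, with no overlap between groups in either comparison, beside 13.6% of all genes tested. PRDX1 raised 4 of 5 neutrophil markers tested without RANKL and 3 with it, and 3 of 5 stromal and endothelial markers in both comparisons. Of all genes, it raised 3.80% without RANKL and 6.03% with it. The part of these markers in the members' changes was not tested. The 4 dendritic cell markers summed to at most 3.78 FPKM, the 9 markers of T, NK and B cells to at most 1.63 FPKM, with Cd3e and Ncr1 at 0, and the 6 markers of mast and erythroid cells to at most 0.114 FPKM, with 5 at 0.

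The genes with the most similar profile to each member were found by the distance between log2(FPKM + 1) values over the 8 libraries, each gene centred on its own mean. For Egr2 they were Vegfa (distance 0.32) and Usp2 (0.331), for Ier3 Rnf128 (0.348) and Ms4a6d (0.384), and for Klf4 Nupr1 (0.258) and Socs3 (0.338). Klf2 was nearest to Rnase2a (0.116) and Themis2 (0.169), Klf6 to Tent5a (0.136) and Atp7a (0.188), and Nr4a1 to Wipi1 (0.322) and Tnfsf8 (0.331). The members that varied least had small distances to their neighbours, Egr1 to Armcx2 (0.115), Ier2 to Brpf3 (0.102) and Btg2 to Helb (0.102). These distances describe 8 libraries in 4 groups, and many genes share a pattern that so few groups define.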

How the data were processed

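RNA-seq values of 8 libraries, 2 in each of 4 groups given by the treatment labels, were used. The authors deposited FPKM, made by counting reads on the exons of RefSeq transcripts of mm10 with HOMER on both strands, keeping 1 transcript per gene. HISAT2 and DESeq2 are also named in the submitters' processing notes, without versions or roles. FPKM multiplied by transcript length gave whole reads, within 0.15 of a read, for 100% of the genes checked in each library, and hence the reads counted. The confidence intervals given come from the limma fit described below, not from these reads. The table had 0 further columns of sample values.

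The deposited values are not counts, so log2(FPKM + 1) was fitted with limma 3.58.1 in R 4.3.3, in 1 model of all 4 groups, with variances trended on mean level. A mean of 0.5 FPKM or more over the 8 libraries was required, which left 11700 genes. Calls needed a Benjamini-Hochberg adjusted p-value under 0.05 over all genes tested and a fold change of at least 1.5, the thresholds of the study's methods. Alternatives were another pseudocount, other filters, quantile and upper quartile scaling, voom on the recovered reads, separate fits, a replicate block, and each library left out. All members were named in every comparison, and from each list the called genes with the largest changes. Members and lists were chosen with earlier results of these data known. List symbols that the table lacks were matched through RefSeq synonyms.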

Additional observations from a re-analysis of the deposited data

Results flagged for a closer look

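The PRDX1 effects in the 2 RANKL conditions differed for 4 members at an adjusted p-value under 0.05. This was the test of the difference itself (limma, Benjamini-Hochberg over all genes tested). None of the differences reached a fold of 1.5 on the scale of FPKM + 1. On the scale of log2(FPKM + 1), the effect with RANKL minus that without RANKL was 0.46 for Klf2 (adjusted p = 0.0227), 0.37 for Klf6 (adjusted p = 0.0207), 0.42 for Ier3 (adjusted p = 0.0321) and -0.45 for Egr2 (adjusted p = 0.0338). When single libraries were omitted, these values ranged from 0.37 to 0.55 for Klf2, from 0.27 to 0.46 for Klf6, from 0.32 to 0.52 for Ier3 and from -0.53 to -0.38 for Egr2. The adjusted p-values were less stable than the values. They were at or above 0.05 under 8 of 15 alternatives for Egr2 (range 0.022 to 0.121), 6 of 15 for Klf2 (0.00814 to 0.0881), 5 of 15 for Klf6 (0.00136 to 0.0847) and 6 of 15 for Ier3 (0.0105 to 0.126), most of them with a library left out. Over all genes tested, 23.1% had an adjusted p-value under 0.05 in this test. The groups of 2 libraries were too small for a search for single libraries that stand apart.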

How the results depend on the processing

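Of 557 values of members under the alternatives, 544 kept their direction and stayed called or not called, 12 changed sign and 1 gained a call. This concerns the call, which needs both thresholds. Among members not called, the adjusted p-value alone moved from under 0.05 to 0.05 or above in 64 of the values, as for Klf2 with PRDX1 without RANKL (0.0463, and 0.108 with no filter), and the other way in 3. No value that changed sign had been called, and the cause was not tested. The call gained was that of Klf4 for PRDX1 with RANKL (0.65) without replicate 2 of no PRDX1 + RANKL. Under quantile normalization the RANKL effect without PRDX1 became -0.051 for Egr1 and -0.0071 for Egr2, and under upper quartile scaling -0.007 for Egr1. With a library left out, the values of Egr1 ranged from -0.022 to 0.21 for PRDX1 with RANKL, from -0.046 to 0.083 for RANKL without PRDX1, from -0.19 to 0.052 for RANKL with PRDX1, and from -0.20 to 0.034 for the interaction. For Egr2 the RANKL effect without PRDX1 ranged from -0.011 to 0.14, and for Ier2 the interaction from -0.034 to 0.11. With a minimum mean of 2 FPKM, 1 member in place of 2 was called lower by RANKL with PRDX1 and 3 in place of 4 without PRDX1, since Nr4a1 was then not tested. The counts of members called were the same in 123 of 126 cases. The replicate numbers are not stated to mark a shared animal or day. Differences between replicates 1 and 2 correlated between groups by 0.01 to 0.10, and with the replicate block 3 members were called higher by PRDX1 without RANKL and 4 with RANKL, as without it. Over all genes, PRDX1 without RANKL called 233 genes lower, against 360 with a pseudocount of 0.1 and 396 with voom, and RANKL with PRDX1 called 529 higher, against 794 with voom. Read depth limits Egr1 and Egr3, and the single time of 48 h limits all members.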
